A study of Mus musculus with 71 samples.

Results

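The genes described here encode the semaphorins and their plexin receptors, the ephrins and their Eph receptors, the netrins and their Unc5 receptors, the Slits and their Robo receptors, and the Flrt proteins. They were chosen by gene name: a probe set counted where the array's annotation gave it exactly 1 gene symbol and that symbol began with the name of 1 of these families. This gave 158 probe sets for 73 genes, of 18193 genes on the array, and where a gene had several, the probe set with the highest mean over the 71 arrays stood for it. They comprise 20 semaphorins, 9 plexins, 8 ephrins, 13 Eph receptors, 6 netrins, 4 Unc5 receptors, 3 Slits, 4 Robos and 3 Flrts. The other 3 matched by name alone: Unc50, Unc5cl and the antisense RNA Plxna4os1 are not members of these ligand and receptor families.

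Levels were measured on 71 oligonucleotide arrays from mice in which GLP or G9a had been deleted; these partner enzymes, encoded by Ehmt1 and Ehmt2, methylate histone H3 at a lysine linked to gene silencing. In 59 arrays the RNA was total RNA of the hippocampus, hypothalamus, striatum or cortex, from mice with floxed GLP (GLPfl/fl) or floxed G9a (G9afl/fl). Mutants carried Camk2a-Cre, a Cre driven by a promoter active in forebrain excitatory and some other neurons after birth, so glia, vessels and many neurons keep the gene; the littermate controls were matched for age and sex. There were 16 such groups of 4 arrays, apart from 3 arrays for G9a hippocampus controls and 2 for each G9a cortex group. The other 12 arrays, 3 in each of 4 groups, held polyribosome-bound RNA of striatal medium spiny neurons (MSN), captured through a tagged ribosomal protein expressed under Drd1 or Drd2 regulatory sequence (Drd1-bacTRAP, Drd2-bacTRAP). Each of those samples pooled 5 G9afl/fl mice, and the mutants also carried Drd1-Cre or Drd2-Cre. The series design gives an age of 10 to 14 weeks. Values are log2 intensities on which 0 is the median probe set of an array, so a difference of 1 is a doubling.

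Guidance molecules are known for steering growing axons. Semaphorins signal through plexins, some with neuropilins as coreceptors; ephrins and Eph receptors signal in both directions between touching cells; netrins attract through Dcc and repel through Unc5; and Slits repel through Robos. Flrt proteins are transmembrane proteins with leucine-rich repeats that bind Unc5 receptors and the adhesion receptors called latrophilins. In the adult forebrain many of these genes stay expressed in neurons, where they act in synapse formation, dendrite shape and plasticity.

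The labels were checked first. Ehmt1 stood at 58.9% to 89.8% of control in the 4 GLP tissue comparisons and was below the test's threshold in the hypothalamus (89.8%, adjusted p = 0.711), while Ehmt2 stood at 29.5% to 49.2% in the 4 G9a tissues. In pools labelled as G9a mutants, Ehmt2 was at 24.3% of control in Drd1-MSN (adjusted p = 0.943) and at 94.5% in Drd2-MSN (adjusted p = 1), so the Drd2-MSN mutant label was not borne out by its target. Markers fixed for each region were highest in the region the label names. A Drd1-MSN mutant pool, replicate 2, stood apart, with a mean correlation of 0.934 with its group, against 0.964 for each other mutant pool. Its Ehmt2 read 1.56, against 4.93 and 5.01 in the other mutant pools and 5.49, 5.93 and 6.22 in controls. Every mutant pool thus lay below every control, and the 24.3% above includes the pool that stood apart. Read from whether Y-linked genes lay above Xist, every GLP-line array was female, the G9a-line tissue groups were mixed except the cortex, where all 4 were male, and Y-linked genes lay above Xist in 0 of 3 Drd1-MSN control pools, 3 of 3 Drd1-MSN mutant pools and 2 of 3 pools in each Drd2-MSN group. The sources used here do not say whether regions were taken from the same animals.

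Of the 73 genes, 52 lay above the array median in all 16 tissue groups, and 9 lay below it in all of them: Efna1, Efna4, Epha1, Epha2, Ephb4, Ntn3, Robo3, Unc5cl and Plxna4os1. A gene was tested in a comparison where it lay above 0 in at least as many of the compared arrays as the smaller group holds, which 56 to 62 members did in each tissue comparison. Whole-tissue levels cannot tell fewer cells of a type from less RNA per cell.

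Few guidance genes changed with loss of either enzyme, and those called more than once all fell. Across the 8 tissue comparisons there were 22 calls in 16 genes at an adjusted p under 0.05, with 16 falls in 10 genes and 6 rises in 6 genes. In the GLP hippocampus 5 of 62 tested members were called (2.05% of all genes tested were called), 1 higher (1.73%) and 4 lower (0.317%). The GLP hypothalamus gave 2 of 56 (1.01%), 1 higher (0.824%) and 1 lower (0.191%), the GLP striatum 1 of 61 (1.67%), which was higher (1.15%), and the GLP cortex 2 of 60 (1.54%), both lower (0.233%). In the G9a hippocampus 4 of 59 were called (2.72%), 2 higher (2.25%) and 2 lower (0.469%). The G9a hypothalamus gave 3 of 60 (2.34%), all lower (0.75%), and the G9a striatum 5 of 60 (3.02%), 1 higher (1.87%) and 4 lower (1.15%). In the G9a cortex 0 of 61 were called (0.728%), with 4 members at an unadjusted p under 0.05 in limma, all lower.

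Among all genes the calls ran the other way. Over all 10 mutant comparisons, MSN pools included, 805 genes were called higher at least once and 313 lower. In at least 2 of these comparisons 235 were called higher, against 60 lower. Of the guidance genes, 0 were called higher in at least 2 comparisons and 3 were called lower: Flrt3 in 4, Epha10 in 3 and Flrt2 in 2. Each tissue comparison has its own control arrays, but regions may have come from the same mice. In all 8, 54 members were tested. Of these, 5 were lower in the mutant mean every time (9.26%, against 3.26% of 10680 genes): Efna3, Epha10, Flrt2, Flrt3 and Unc5c. Another 2, Robo1 and Sema4f, were higher every time (3.70%, against 3.31%). The median difference of the tested members was -0.08 in the GLP hippocampus, against -0.02 for all genes tested, and 0.07 in the GLP hypothalamus, against -0.0016, and it lay within 0.1 of 0 in the 8 tissue comparisons.

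**Figure D1:**
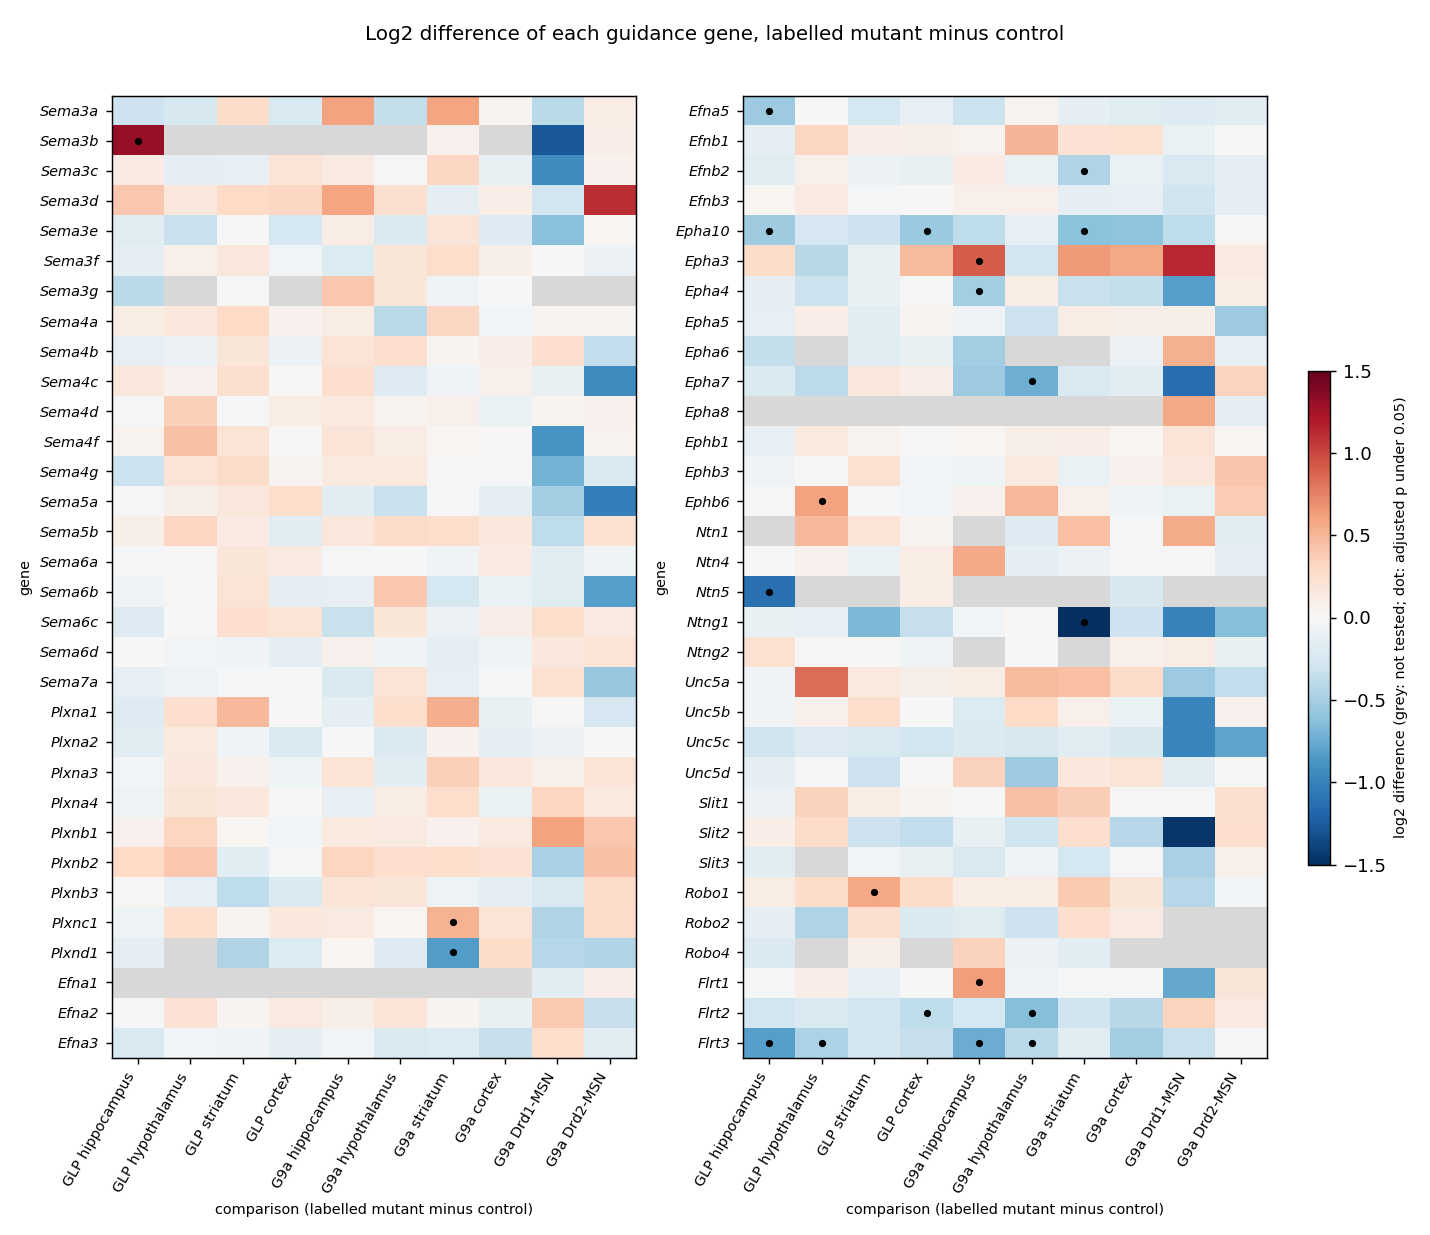
Log2 difference, labelled mutant minus control, of each guidance gene tested in at least 1 of the 10 mutant comparisons (columns), grouped by family down the rows; grey cells were not tested and black dots mark an adjusted p under 0.05. Flrt3 carries 4 dots, Epha10 3 and Flrt2 2, all on falls, and neither MSN column carries a dot.

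Flrt genes held 7 of the 22 calls, from 24 tests of a Flrt gene in a tissue. Of all genes tested, 0.728% to 3.02% were called per tissue comparison. Flrt3, a postsynaptic partner of latrophilins, read 4.43, 4.69, 4.74 and 4.79 in the GLP hippocampus controls and 3.76, 3.80, 3.82 and 3.98 in the mutants. All mutants lay below all controls. Flrt3 stood at 56.5% of control (log2 difference -0.82 ± 0.10, SE; adjusted p = 4.36e-08). In the G9a hippocampus the controls read 4.49, 4.67 and 4.78 and the mutants 3.87, 3.88, 3.91 and 3.93. The groups were again apart, and Flrt3 stood at 59.5% of control (-0.75 ± 0.11; adjusted p = 2.07e-06). The 2 hippocampal falls differed by -0.07 (95% interval -0.37 to 0.22). Leaving out any 1 array kept both calls.

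In the hypothalamus Flrt3 fell less far. The GLP controls read 4.17, 4.47, 4.53 and 4.74 and the mutants 3.82, 3.99, 4.06 and 4.15, which puts the lowest control just above the highest mutant. The difference was -0.48 (adjusted p = 0.00381), and without control replicate 2 it lost its call (adjusted p = 0.0605). G9a controls read 4.51, 4.55, 4.55 and 4.70 and mutants 4.00, 4.18, 4.24 and 4.28, a difference of -0.40 (adjusted p = 0.019) that was lost without control replicate 4 (adjusted p = 0.0692). With only the compared groups in the fit, both hypothalamic calls were lost (adjusted p = 0.358 and 0.686). The cortex gave differences of -0.34 with GLP (adjusted p = 0.0779) and -0.51 with G9a (adjusted p = 0.0986). In each line every cortex mutant read below every control, but the G9a cortex had only 2 arrays a group. In the striatum, where Flrt3 is highest, the differences were -0.28 and -0.16, and the G9a groups overlapped. A separate probe set for Flrt3 gave the same sign in all 8 tissues, with -0.82 and -0.72 in the GLP and G9a hippocampus.

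Flrt2, its paralogue, fell in the G9a hypothalamus and the GLP cortex. In the G9a hypothalamus the controls read 4.24, 4.46, 4.65 and 4.75 and the mutants 3.49, 3.80, 4.05 and 4.22. The highest mutant and lowest control were nearly level, and Flrt2 stood at 64.3% of control (-0.64 ± 0.10; adjusted p = 7.17e-05); this call held without any 1 array and was lost with only the compared groups in the fit (adjusted p = 0.58). In the GLP cortex the controls read 5.27, 5.41, 5.47 and 5.56 and the mutants 4.93, 5.01, 5.08 and 5.16, a difference of -0.38 (adjusted p = 0.0375) that was lost without any of 6 of the 8 arrays. All 3 of its probe sets were lower in all 8 tissue comparisons, but with their mean the GLP cortex call was lost (adjusted p = 0.128). Flrt1 moved the other way in 1 region. In the G9a hippocampus its controls read 1.22, 1.76 and 1.77 and its mutants 2.07, 2.16, 2.22 and 2.37, a rise of 0.62 (adjusted p = 0.000182) held without any 1 array and lost with only the compared groups in the fit (adjusted p = 0.101) or with the mean of its probe sets (adjusted p = 0.0532). Its difference in the GLP hippocampus was -0.03, and the test between the 2 enzymes gave -0.66 (adjusted p = 0.0515).

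**Figure D2:**
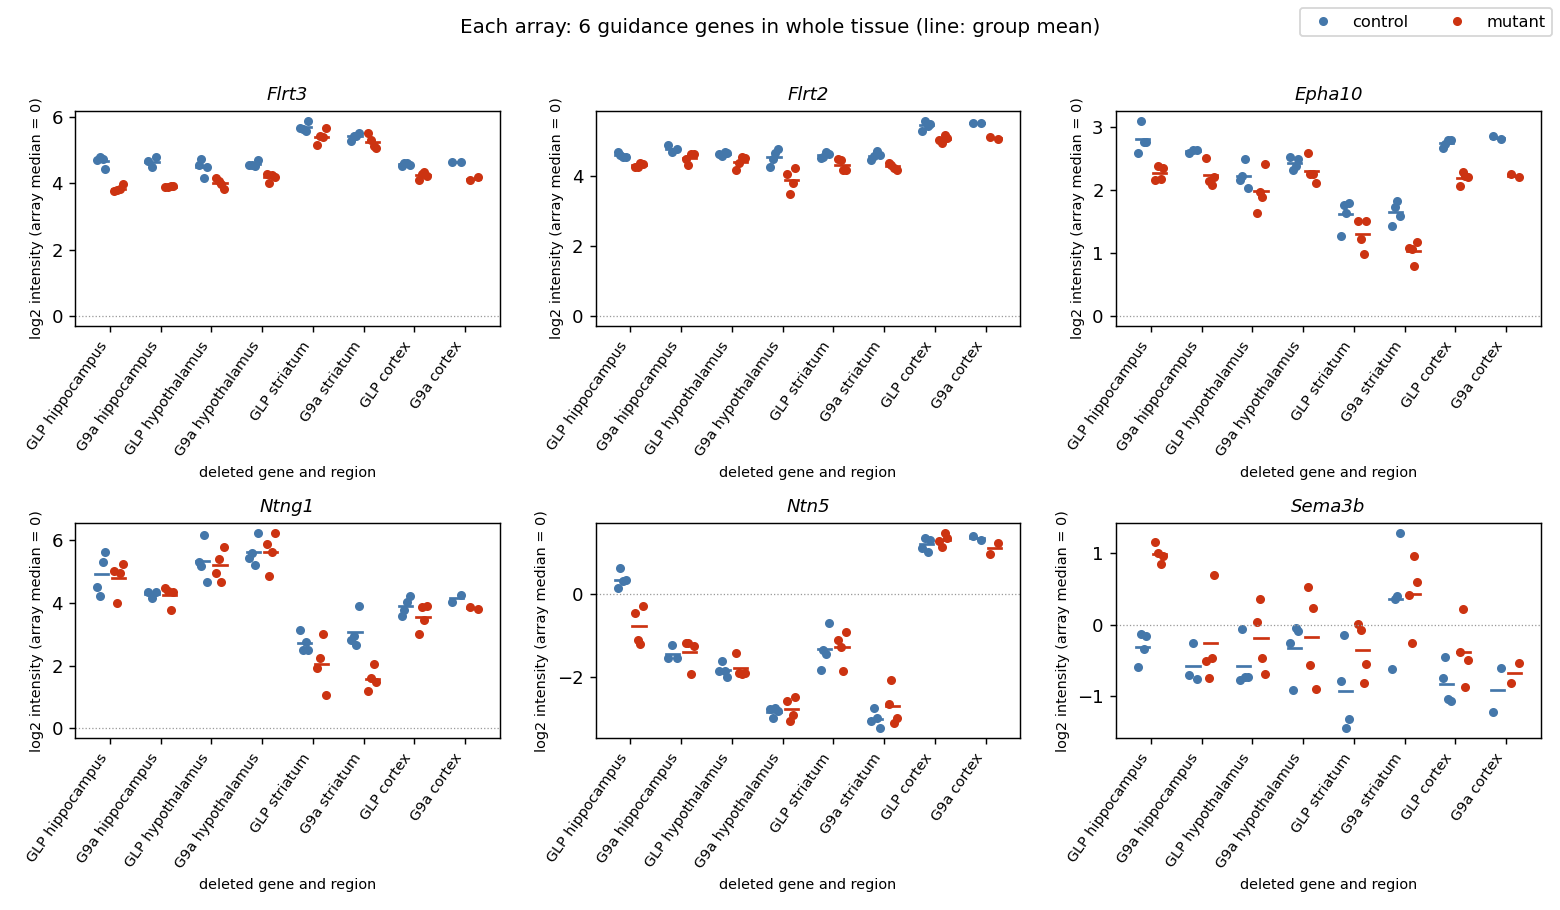
Each point is 1 array (log2 intensity, array median at 0), with controls in blue, mutants in red and a line at each group mean, for 6 guidance genes over the deleted gene and region on the x axis. Hippocampal Flrt3 mutants read 3.76 to 3.98, below controls at 4.43 to 4.79, and Sema3b is raised in the GLP hippocampus mutants.

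The promoters of the recurrently called genes are shown because these genes were called lower more than once, beside that of Ntn5, which was called in the GLP hippocampus alone. Each is a RefSeq promoter window of 300 bases on GRCm38.p6, read along the gene's strand, with each CpG in capitals. Flrt3 is at chr2:140671427-140671726 on the minus strand and Flrt2 at chr12:95691976-95692275 on the plus strand. Epha10 is at chr4:124881535-124881834 and Ntn5 at chr7:45683772-45684071, both on the plus strand. The Flrt3 and Ntn5 windows lie mostly upstream of the gene's listed start. Most of the Flrt2 window lies downstream of its listed start (95692006), and all of the Epha10 window does (124881530).
Flrt3: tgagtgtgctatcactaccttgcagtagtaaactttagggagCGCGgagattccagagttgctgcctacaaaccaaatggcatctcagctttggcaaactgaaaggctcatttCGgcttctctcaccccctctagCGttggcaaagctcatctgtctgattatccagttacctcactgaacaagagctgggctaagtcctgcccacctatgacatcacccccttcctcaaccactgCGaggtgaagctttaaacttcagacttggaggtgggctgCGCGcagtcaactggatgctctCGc
Flrt2: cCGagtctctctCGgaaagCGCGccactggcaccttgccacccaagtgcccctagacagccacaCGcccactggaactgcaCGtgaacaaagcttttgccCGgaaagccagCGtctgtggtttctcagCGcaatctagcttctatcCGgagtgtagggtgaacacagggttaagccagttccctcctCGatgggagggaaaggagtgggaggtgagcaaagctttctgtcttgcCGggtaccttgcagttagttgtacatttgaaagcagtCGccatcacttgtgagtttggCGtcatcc
Epha10: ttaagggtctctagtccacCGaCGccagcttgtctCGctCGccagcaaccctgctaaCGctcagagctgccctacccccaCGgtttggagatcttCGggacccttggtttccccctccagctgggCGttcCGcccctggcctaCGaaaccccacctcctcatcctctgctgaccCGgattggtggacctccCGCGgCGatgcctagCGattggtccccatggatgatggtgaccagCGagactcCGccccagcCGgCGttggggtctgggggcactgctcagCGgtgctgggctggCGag
Ntn5: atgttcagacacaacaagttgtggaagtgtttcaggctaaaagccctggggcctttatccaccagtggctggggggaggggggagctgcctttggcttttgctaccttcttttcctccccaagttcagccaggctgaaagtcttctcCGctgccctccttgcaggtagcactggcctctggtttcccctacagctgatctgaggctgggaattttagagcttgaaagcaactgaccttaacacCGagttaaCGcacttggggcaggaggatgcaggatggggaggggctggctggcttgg

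These 4 windows hold 8, 14, 21 and 3 CpG. The windows of the other genes called lower, not printed here, hold 17 (Epha4) to 38 (Efna5), with 28 for Ntng1. RefSeq promoters were matched for 62 of the 73 guidance genes, with a median of 20.5 CpG, against 7 for all 27025 RefSeq promoters. That larger set, used for each comparison below, was not limited to genes on the array or genes tested. Of all promoters, 49% had as many CpG as Flrt3 or more, 36.9% as many as Flrt2, 25% as many as Epha10 and 76.2% as many as Ntn5. A GC box (GGGCGG on either strand) was present in 44 of the 62 promoters of members and 35.9% of all, an E-box (CACGTG, the same on both strands) in 8.06% and 7.24%, and a cAMP response element (TGACGTCA, the same on both strands) in 1.61% and 1.88%. The GC box occurs in the Epha10 window and not in the Flrt3, Flrt2 or Ntn5 windows, and the E-box occurs in Flrt2 alone of these. A match is only a string of letters.

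Eph receptors held another 7 calls, in 5 of the 9 that could be tested in tissue. These came from 69 tests of an Eph receptor, where 0.728% to 3.02% of all genes tested were called per comparison. Epha10, a family member without kinase activity, fell in 3 comparisons. In the GLP hippocampus its controls read 2.60, 2.76, 2.77 and 3.10 and its mutants 2.17, 2.18, 2.36 and 2.38 (-0.54; adjusted p = 0.0105). That call was lost when any of 3 arrays was left out. GLP cortex controls read 2.67, 2.73, 2.79 and 2.80 and mutants 2.06, 2.21, 2.22 and 2.30 (-0.55; adjusted p = 0.00903, and 0.0509 without mutant replicate 1). Both pairs of groups were apart. In the G9a striatum the controls read 1.43, 1.59, 1.74 and 1.82 and the mutants 0.80, 1.07, 1.08 and 1.18, which left Epha10 at 65.3% of control (-0.62 ± 0.13; adjusted p = 0.00174), a call held without any 1 array. In the G9a cortex, with 2 arrays a group, it read 2.81 and 2.85 in controls and 2.21 and 2.26 in mutants, a difference of -0.60 that missed the threshold (adjusted p = 0.211). Epha10 has 1 probe set on the array.

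The remaining Eph calls were each made once. Epha7 fell in the G9a hypothalamus, from 2.85, 3.05, 3.36 and 4.08 in controls to 2.21, 2.56, 2.68 and 2.96 in mutants (-0.73; adjusted p = 0.00601). The groups overlapped, and the control at 4.08, replicate 4, carried the call (adjusted p = 0.0761 without it). Epha4, which binds ephrins of both classes, fell in the G9a hippocampus from 7.48 to 7.67 in controls to 6.94 to 7.18 in mutants (-0.52; adjusted p = 0.0485, lost without any of 6 of the 7 arrays). Its 5 probe sets were all lower, with differences from -0.52 to -0.10, but their mean was not called (-0.29; adjusted p = 0.518), nor was Epha4 with sex as a covariate (adjusted p = 0.0567). Epha3 rose in the same tissue from 2.97, 2.97 and 3.21 to 3.83, 3.89, 4.03 and 4.10, to 188% of control (0.91; adjusted p = 0.0438). That call was lost without any 1 of the 7 arrays, and 1 of its 4 probe sets went the other way. Ephb6, also without kinase activity, rose in the GLP hypothalamus from 0.58, 0.87, 1.16 and 1.37 to 1.10, 1.55, 1.78 and 1.99 (0.61; adjusted p = 0.0312), with overlapping groups and a loss of the call without any of 4 arrays. Beside the G9a hippocampus calls, 3 of 12 tested markers of meninges and fibroblasts and 3 of 12 of microglia and macrophages were also higher in mutants, and the meningeal mean was 1.69 to 2.98 in mutants and 1.23 to 1.77 in controls. Region markers moved there too: 2 of 10 tested cortex markers were higher (list mean 3.96 to 4.08 in mutants, 3.86 to 3.93 in controls) and 1 of 11 hippocampus markers lower (4.70 to 4.91 against 4.91 to 4.97). In controls Epha4 averaged 7.31 in the hippocampus and 5.71 in the cortex, and Flrt1 1.72 and 3.09. The part of these markers in the Epha3, Epha4 and Flrt1 results was not tested.

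Of the ephrins, the ligands of these receptors, 2 of the 6 that could be tested were called, both lower and both with overlapping groups. These 2 calls came from 48 tests of an ephrin, where 0.728% to 3.02% of all genes tested were called per comparison. Efna5, anchored in the membrane by a lipid, read 1.44, 2.02, 2.05 and 2.08 in GLP hippocampus controls and 0.71, 1.33, 1.41 and 1.95 in mutants (-0.55; adjusted p = 0.0419), with the call lost without any of 6 of the 8 arrays and its other probe set at 0.04. Efnb2, a transmembrane ephrin, read 5.36, 5.84, 5.95 and 6.0 in G9a striatum controls and 5.21, 5.27, 5.42 and 5.46 in mutants (-0.45; adjusted p = 0.0477), lost without any of 7 of the 8 arrays. Efna3 was lower in all 8 tissues, by 0.04 to 0.34, and was called in none. With only the compared groups in the fit, the calls of Ephb6, Epha7, Efna5 and Efnb2 were lost (adjusted p = 0.778, 0.828, 0.396 and 0.0957), and with quantile normalization or no filter those of Epha3, Epha4 and Efnb2.

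Of the netrin family, Ntng1 and Ntn5 were called once each, both lower. These 2 calls came from 31 tests of a netrin, where 0.728% to 3.02% of all genes tested were called per comparison. Ntng1, a membrane-anchored netrin that binds the ligand Lrrc4c, read 2.67, 2.82, 2.93 and 3.91 in G9a striatum controls and 1.19, 1.48, 1.60 and 2.04 in mutants. Every mutant was below every control, and the gene stood at 35.3% of control (-1.5 ± 0.33; adjusted p = 0.00259, and at most 0.0307 without any 1 array). Its probe sets disagreed in size: -1.5, -0.58, -0.43 and 0.02, and their mean fell short of the threshold at -0.62 (adjusted p = 0.129). In the GLP striatum Ntng1 read 2.49, 2.50, 2.76 and 3.14 in controls and 1.05, 1.91, 2.23 and 3.01 in mutants, with overlap (-0.67; adjusted p = 0.469). In the other regions its differences lay between -0.34 and 0.01. Ntn5 fell in the GLP hippocampus from 0.14, 0.31, 0.33 and 0.62 to -1.20, -1.10, -0.47 and -0.29, from just above to below the array median (-1.11 ± 0.21; adjusted p = 0.000488), a call held without any 1 array. It was tested there because the controls lay above 0. With a floor at the array median the difference was -0.35 (adjusted p = 0.00122). The G9a hippocampus controls already read -1.55, -1.54 and -1.23, so Ntn5 was not tested there, and the test between the enzymes in the hippocampus gave -1.16 (adjusted p = 0.153).

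Of the 4 Unc5 receptors, through which netrins repel, 0 were called in any mutant comparison. Unc5c was nevertheless lower in the mutant mean in all 8 tissues, by 0.17 to 0.30, with unadjusted p between 0.0633 and 0.291. In tissue, Unc5a showed the largest Unc5 difference, 0.83 in the GLP hypothalamus (adjusted p = 0.271), where 1 of the 4 controls read -2.02 and the others 0.22 to 0.54.

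Among 20 semaphorins, the only tissue call was Sema3b in the GLP hippocampus. This secreted semaphorin read -0.60, -0.34, -0.15 and -0.14 in controls and 0.86, 0.96, 1.01 and 1.17 in mutants (1.31 ± 0.32; adjusted p = 0.0127), and it passed the filter only through the mutants, where it was high. It lost the call without mutant replicate 1 or control replicate 1 (adjusted p up to 0.0559). Choroid plexus and ependymal markers moved with it: 12 of 15 tested were higher in the same mutants, and their mean level was 3.04 to 3.81 in mutants against 0.26 to 2.25 in controls. In the G9a striatum the same markers ranged from -0.75 to 3.43 among controls and Sema3b from -0.62 to 1.29. Their part in the Sema3b result was not tested.

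Plexins, the semaphorin receptors, gave 2 calls, both in the G9a striatum and in opposite directions. These 2 calls came from 71 tests of a plexin, where 0.728% to 3.02% of all genes tested were called per comparison. Plxnd1, the receptor of Sema3e, read 3.39, 3.77, 3.97 and 3.98 in controls and 2.31, 3.01, 3.08 and 3.33 in mutants, without overlap (-0.84 ± 0.23; adjusted p = 0.0267), and the call was lost without any of 4 arrays or with only the compared groups in the fit (adjusted p = 0.0552). Plxnc1, the receptor of Sema7a, read 3.52, 3.84, 3.93 and 3.99 in controls and 4.24, 4.26, 4.27 and 4.61 in mutants (0.52; adjusted p = 0.0172), lost without mutant replicate 2 or control replicate 1. In the GLP striatum Plxnc1 differed by 0.04 and Plxnd1 by -0.46, with overlapping groups. Sema3e and Sema7a themselves were not called in any tissue. Of 9 tested cortex markers 3 were higher in the G9a striatum mutants, with a mean of 2.98 to 3.28 against 2.47 to 3.16 in controls, while the striatal markers read 6.74 to 6.94 and 6.86 to 6.94; their part in the striatal results was not tested. Of oligodendrocyte and astrocyte markers 0 of 14 and 0 of 12 were called in the GLP hippocampus, G9a hippocampus or G9a striatum.

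Slits were not called in any tissue, and their Robo receptors once. Robo1 read 4.74, 4.79, 4.80 and 4.83 in GLP striatum controls and 5.21, 5.28, 5.33 and 5.66 in mutants, to 150% of control (0.58 ± 0.15; adjusted p = 0.0183). The control arrays lay within 0.1 of each other, and every mutant was above them; the call was lost without mutant replicate 4 or control replicate 3. The 3 probe sets of Robo1 were all higher, at 0.58, 0.21 and 0.03. In the G9a striatum it read 4.52 to 4.90 in controls and 5.00 to 5.24 in mutants, also apart (0.40; adjusted p = 0.163), and it was higher in the mutant mean in all 8 tissues.

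Other genes of these pathways gave 5 calls in the 8 tissue comparisons, in each of which 0.728% to 3.02% of all genes tested were called. Of 36 further ligands, adhesion molecules and coreceptors on the array (such as Dcc, the neuropilins and the latrophilins), 33 to 35 were tested per tissue, and 2 were called in the 8 tissues, both higher in the G9a striatum: Chl1, a relative of the adhesion molecule L1 (0.45; adjusted p = 0.00185), and Rtn4r, the Nogo receptor (0.74; adjusted p = 0.0358, lost without any of 5 arrays). Of 54 genes of signalling inside the cell, 52 to 54 were tested per tissue and 3 calls were made, all rises. Ngef, which encodes ephexin, an exchange factor acting below Eph receptors, rose in the GLP hypothalamus (0.56; adjusted p = 7.91e-06) and in the G9a hippocampus (0.32; adjusted p = 0.0328, lost without any of 5 arrays). Dpysl4, of the family of proteins that relay semaphorin signals, rose in the GLP hypothalamus (0.57; adjusted p = 0.00991, lost without any of 3 arrays).

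The change on loss of GLP was compared with that on loss of G9a in each region, each line against its own controls. In the hippocampus 0 of 62 members differed (0.157% of all genes tested were called, 0.0826% higher and 0.0743% lower), with 6 at an unadjusted p under 0.05, and in the hypothalamus 0 of 61 (0.00831%), with 7. The striatum gave 0 of 63 (0.00842%), with 2, and the cortex 0 of 61 (0.0168%, 0.0084% in each direction), with 0. For Flrt3 the differences between the enzymes lay between -0.12 and 0.17 over the 4 regions, with 95% intervals that reached at most 0.52 from 0. For Flrt2 in the hypothalamus, called with G9a only, the difference was 0.40 (95% interval 0.11 to 0.70; adjusted p = 0.413). Members called with 1 enzyme alone were therefore not shown to differ between the enzymes.

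No guidance gene was called in the labelled G9a mutants of either MSN type. In Drd1-MSN 0 of 61 members passed (0.0249% of all genes tested were called), with 0 at an unadjusted p under 0.05 in limma, and in Drd2-MSN 0 of 61 (0.0165%), with 2. The smallest p in Drd1-MSN belonged to Sema3b, Unc5b and Epha7, with differences of -1.28, -0.99 and -1.14 (adjusted p = 0.943 each). These rested on mutant replicate 2, the pool that stood apart: Epha7 read 2.08 there, against 4.91 and 4.98 in the other mutant pools and 5.01 to 5.28 in controls, and without that pool the differences were -0.36, -0.27 and -0.18.

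Sema3d, a secreted semaphorin, had the smallest p in Drd2-MSN. It read -0.23, 0.09 and 0.59 in control pools and 0.46, 1.63 and 1.67 in mutant pools (1.11, 95% interval 0.15 to 2.06; adjusted p = 1). Sema6b and Sema4c followed, at -0.82 and -0.95 (adjusted p = 1), and in both the control pool of replicate 1 was the highest; without it the differences were -0.37 and -0.32. Ntng1, which fell in the whole G9a striatum, differed by -1.0 in Drd1-MSN (95% interval -2.17 to 0.17) and by -0.64 in Drd2-MSN (-1.80 to 0.53). Flrt3 differed by -0.33 (-0.94 to 0.28) and -0.03 (-0.64 to 0.58), intervals that include both 0 and falls of the size seen in the hypothalamus. Of 61 members 0 differed in their change between the MSN types, as did 0% of all genes, with 1 member at an unadjusted p under 0.05 in limma.

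The control pools of the 2 MSN types differed in 14 of 61 guidance genes (15.4% of all genes tested were called), 11 of them lower in Drd1-MSN (7.65%) and 3 higher (7.7%). Semaphorins made up 7 of the 11: Sema3f, Sema4a, Sema4b, Sema4d, Sema6b, Sema6c and Sema7a, of 19 tested. Sema4d, a ligand of Plxnb1, read 1.31, 1.40 and 1.52 in Drd1-MSN and 3.30, 3.50 and 3.62 in Drd2-MSN (-2.06 ± 0.24; adjusted p = 0.000237), and this call held without any 1 pool. Plxnb1 itself read 1.14, 1.62 and 1.90 against 2.57, 3.00 and 3.76 (-1.55; adjusted p = 0.0245). Sema7a read 4.94 to 5.35 against 6.30, 6.50 and 8.19, with Drd2-MSN replicate 1 far above the others (-1.79; adjusted p = 0.0323, 0.0954 without that pool, lost without any of 4 pools, and 0.139 with the mean of probe sets). Sema4b had the same shape, at 4.42 in that pool and 2.38 and 2.67 in the others (-1.58; adjusted p = 0.0445). Its call was lost without any of 5 of the 6 pools, with quantile normalization (0.0675) and with only the compared groups in the fit (0.0561). Sema3f differed by -1.58 (adjusted p = 0.0417, lost without any of 5 of the 6 pools). Efnb3, a transmembrane ephrin, was also lower (-1.39; adjusted p = 0.00645), as were Epha8 and Ntng2.

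Higher in Drd1-MSN were Epha5, Ntng1 and Plxna4. Epha5, a receptor of A-class ephrins, read 5.82, 6.05 and 6.07 against 3.42, 3.65 and 4.05 (2.27 ± 0.44; adjusted p = 0.00521), held without any 1 pool, although the mean of its probe sets was not called (adjusted p = 0.178). Ntng1 read 3.73, 5.10 and 6.43 against 2.60, 3.11 and 3.49, spread widely in Drd1-MSN (2.02; adjusted p = 0.0261, lost without any of 4 pools). Plxna4, a receptor for class 3 semaphorins with neuropilins, differed by 1.24 (adjusted p = 0.0275, lost without any of 5 pools). Lrrc4c, the ligand of Ntng1, was higher too (1.5; adjusted p = 0.00315). Leaving out 1 pool changed the count from 14 to between 4 and 10, and 4 remained without Drd1-MSN control replicate 2; with sex as a covariate 6 genes were called, and Ntng1, Plxna4, Sema7a and Sema4b were among those lost (adjusted p = 0.128, 0.213, 0.185 and 0.307). Kidney tubule markers also moved with it: 6 of 6 tested were higher in Drd1-MSN controls, whose mean was 0.36 to 0.88 against -1.75 to -1.57 in Drd2-MSN. Of 10 choroid plexus and ependymal markers 5 were higher and 1 lower. Of 11 tested endothelial and mural markers 4, and of 11 microglial markers 2, were lower in Drd1-MSN. Meningeal markers were lower in 2 of 6, astrocyte markers in 1 of 12 and oligodendrocyte markers in 1 of 14, with astrocyte means of 4.47 to 4.75 against 4.92 to 5.31 and oligodendrocyte means of 5.73 to 6.15 against 6.18 to 6.60. The part of these cells in the guidance genes was not tested.

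**Figure D3:**
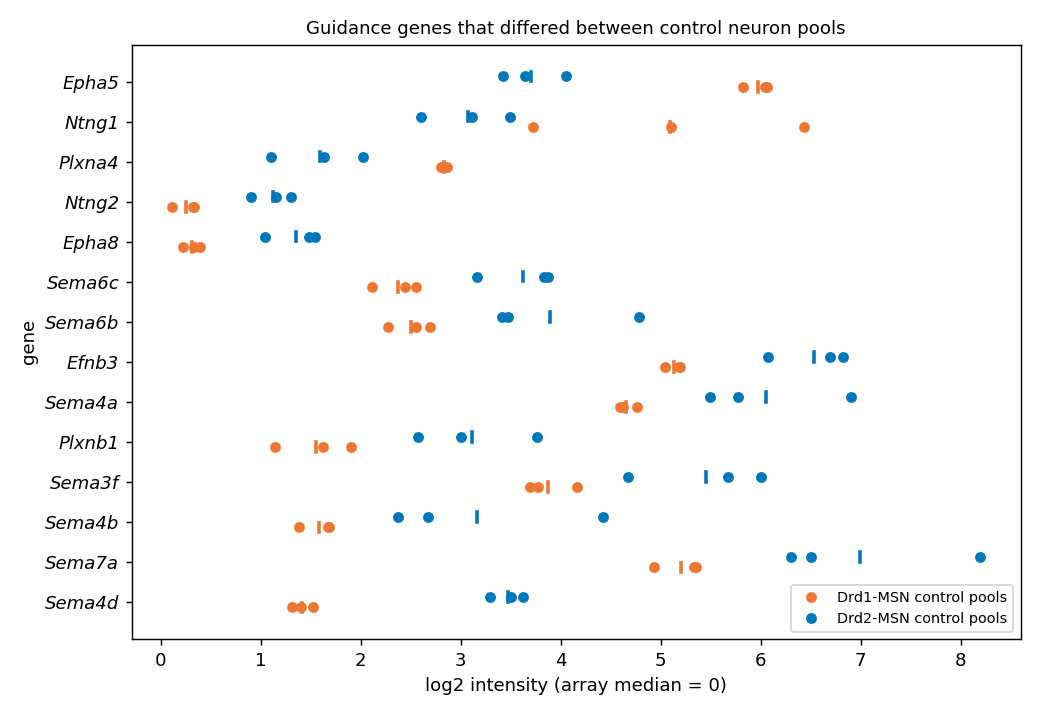
Log2 intensity (array median at 0) of the 14 guidance genes called between control pools, with 1 point per pool, Drd1-MSN in orange, Drd2-MSN in blue and a bar at each mean. Epha5, Ntng1 and Plxna4 are higher in Drd1-MSN and the other 11 lower; Sema7a and Sema4b each have 1 Drd2-MSN pool far above the rest.

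Against these modest changes, guidance genes differed strongly between regions in the controls. Compared with the mean of the other 3 regions, 48 of 62 members were called in the hippocampus (62.4% of all genes tested were called), 33 of them higher (38.8%), 51 in the hypothalamus (76%), 53 in the striatum (64.3%) and 38 in the cortex (67.8%). The typical size was larger than for genes at large in the striatum, with a median absolute difference of 0.62 against 0.27, in the hippocampus with 0.47 against 0.27 and in the hypothalamus with 0.60 against 0.38; in the cortex it was 0.36 against 0.34. Eph receptors were mostly high in the hippocampus (7 of 9 tested called higher, 1 lower, where 38.8% of all genes were called higher and 23.7% lower) and low in the hypothalamus (0 higher, 7 lower, where 36% of all genes were called higher and 40% lower), and all 3 Slits were higher in the hippocampus.

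Sema3a, a secreted repellent, had the widest range, with control means of 0.66 in the hippocampus, 2.02 in the hypothalamus, 3.98 in the cortex and 4.56 in the striatum. It was lower in the hippocampus by 2.86 ± 0.14 than in the other regions (-2.77 in GLP-line and -2.94 in G9a-line controls) and higher in the striatum by 2.34. Slit1 ran the opposite way, at 4.60 in the hippocampus and 1.47 in the striatum, with differences of 2.24 and -1.92. Plxna1 was also high in the hippocampus (1.75) and low in the striatum (-1.81). Epha6 (2.30) and Epha7 (1.91) were the Eph receptors most raised in the hippocampus, and Epha7 was low in the hypothalamus (-2.22). Sema3a apart, the hippocampus was lowest in Ntn1 (-1.59), Efna5 (-1.42) and Ntn4 (-1.26; -0.80 within the GLP line and -1.72 within the G9a line). Each of these held the same sign in both lines.

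The hypothalamus was set apart by low Sema7a (-2.66), Sema3e (-2.49) and Plxnd1 (-2.25), and by high Ntng1 (1.63), Unc5d (1.58), Sema4g (1.18) and Slit2 (1.07). The striatum was high in Plxnd1 (1.80), Efnb2 (1.48) and Sema7a (1.37), and low in Ntng1 (-1.80) and Epha5 (-1.68). Ntn5 was highest in the cortex, with a control mean of 1.27 against -0.54 in the hippocampus and below -2 in the hypothalamus and striatum (2.96; 2.14 within the GLP line and 3.78 within the G9a line). The cortex was also high in Plxnd1 (1.63), Sema3a (1.56) and Ntn1 (1.49), and lower in Efnb3 (-0.92) and Sema4c (-0.87). Slit1 differed in the cortex by -0.64 (-0.32 and -0.97 within the lines). Of the smaller families, Robo2 ranged from 0.89 in the hippocampus to 2.07 in the striatum and Flrt1 from 1.71 in the hypothalamus to 3.09 in the cortex. Adjusted p for the regional differences ran from 2.91e-35 for Sema7a in the hypothalamus to 0.000901 for Sema5a in the cortex. Sema5a, lower in the cortex by 0.62 over both lines, differed by 0.05 within GLP-line controls and by -1.28 within G9a-line controls.

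The 2 lines' controls differed in the hypothalamus: 28 of 73 members were over 1 apart there, led by Sema4f (-2.50, GLP line minus G9a line), against 6 in the hippocampus, 5 in the striatum and 0 in the cortex. Those counts take all 73 members, tested or not, and the share of all genes over 1 apart was not counted. The median absolute difference of tested members in the hypothalamus was 0.78, against 0.46 for all genes tested. Unc5a, Slit1, Plxnd1 and Efnb2 were all lower in the hypothalamus of the GLP line, and Slit2 was higher there than in other regions by 0.46 within the GLP line and 1.69 within the G9a line. Region markers differed with the line there: hypothalamus markers averaged 2.31 to 2.78 in GLP-line and 3.37 to 3.89 in G9a-line controls, and striatum markers 2.03 to 2.27 and 2.65 to 2.96. The GLP-line controls were all female and the G9a-line hypothalamus controls were 2 of 4 male. The part of these markers and of sex in the line differences was not tested.

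**Figure D4:**
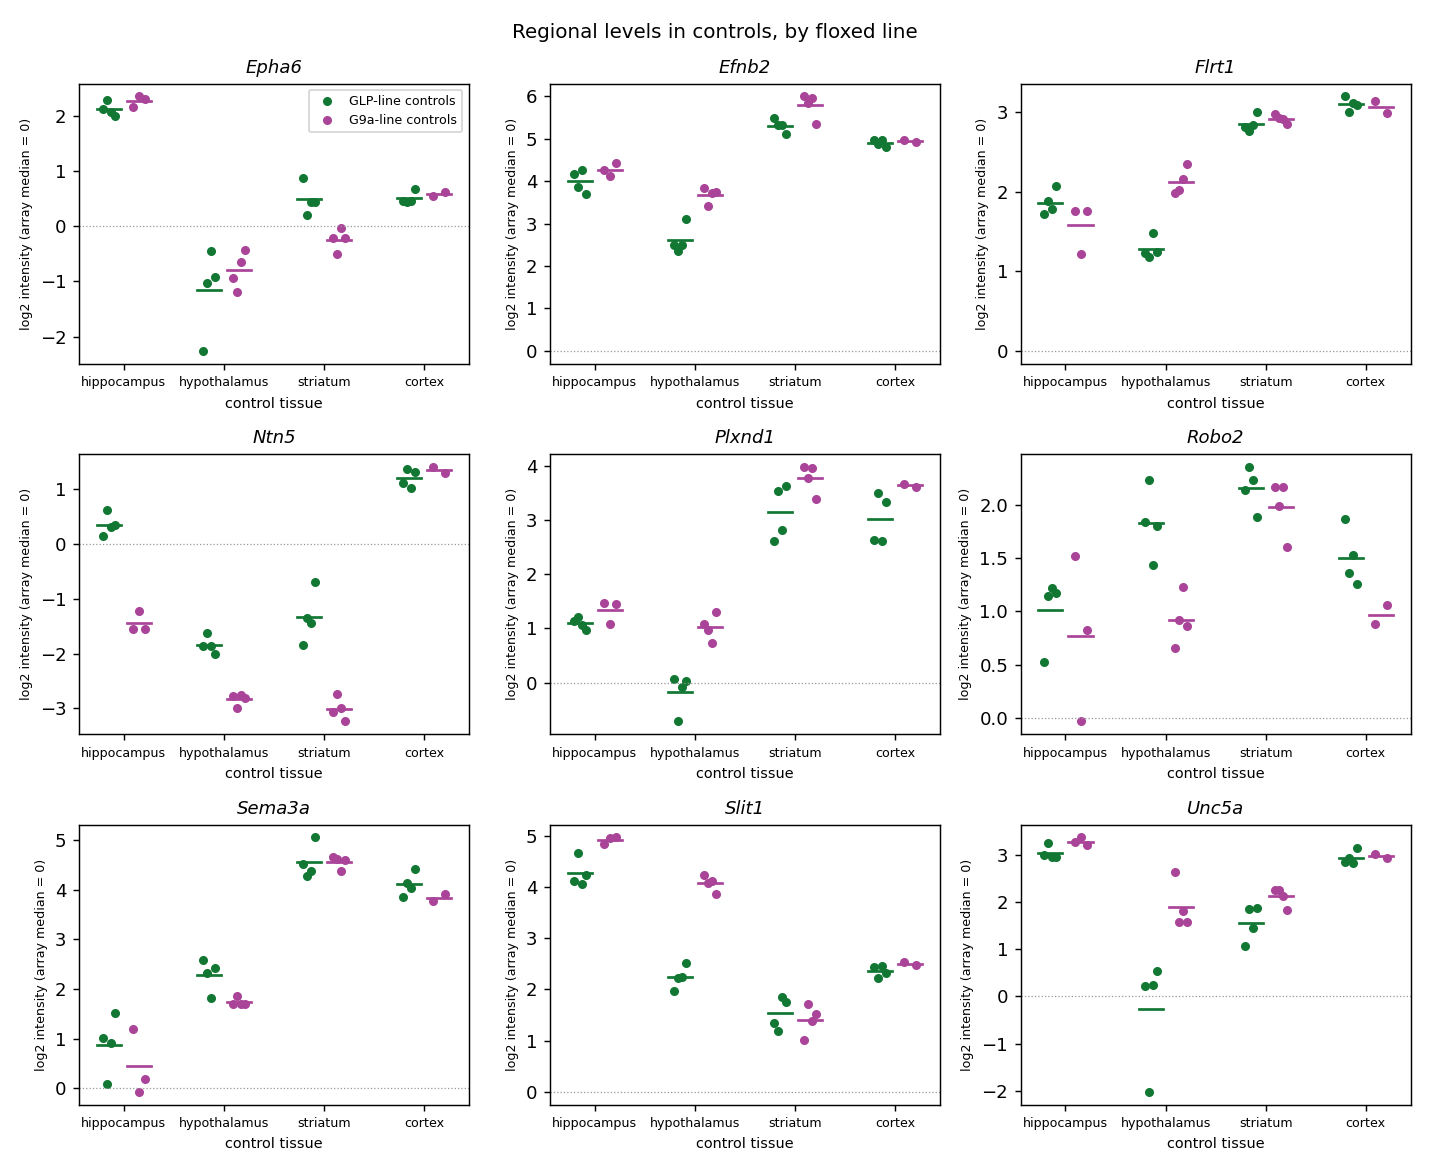
Control arrays by region for the gene of widest regional range in each of 9 families (log2 intensity, array median at 0; GLP-line in green, G9a-line in purple, line at the mean). Sema3a rises from the hippocampus to the striatum where Slit1 falls. Unc5a, Slit1, Plxnd1 and Efnb2 are lower in the hypothalamus of the GLP line. Ntn5 is higher in the GLP line by 1.79 in the hippocampus and 1.68 in the striatum.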

How the data were processed

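The authors deposited 1 intensity per probe set and array, made with GCRMA per the submitters' processing notes (no version stated), on a linear scale with every array's median at 1. Here log2 values were used without a floor. Of 45101 probe sets, 34945 had 1 gene symbol. Tests used limma 3.58.1 (R 4.3.3), with the 16 tissue groups in 1 fit and the 4 MSN groups in another, with an intensity trend and Benjamini-Hochberg adjustment over all genes tested per comparison, called at 0.05. The p-values measure the spread between these samples, pooled over the groups of a fit; the series' design text calls them biological replicates.

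The members and gene lists were chosen with earlier results of these data known. Named were members called in a mutant comparison or, where none was, the 3 of smallest p; in control comparisons, the 4 called members with the largest rise and the 4 with the largest fall; the widest regional range per family; and up to 3 called pathway genes of smallest p per mutant comparison. Efna3, Unc5a, Unc5c, Sema4f, Robo1 in other regions, Ntng1 and Flrt3 in MSN, and the further genes called between MSN types were named after their values were seen.

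Lists tested: those of the regions, of 6 other brain cell types and of kidney tubule. Every same-numbered pair correlated above 0.1 only in Drd2-MSN, where deviations correlated at 0.164, 0.384 and 0.484. The fits were tested on simulated data, with normal noise of 1 spread per gene, shared by all groups of a fit. The shares that follow therefore do not show what unequal spread between groups, or an outlying array, would do. Of changes of 1, 97% were recovered in the GLP hippocampus, 74.6% in the G9a cortex, 13.4% in Drd1-MSN and 16.4% in Drd2-MSN. For changes of 0.5 the shares were 43.9%, 25.8%, 0% and 1.52%. False calls made up 1.84%, 3.65%, 9.09% and 5.08% of the calls. Alternatives were no filter, a floor at the median, quantile normalization, only the compared groups in the fit, the mean of probe sets, sex, a replicate block, 1 line of controls, and leaving out each array. The highest correlation of 2 arrays was 0.998, and no array was a duplicate. The number of arrays limits the precision.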

Additional observations from a re-analysis of the deposited data

Results flagged for a closer look

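Among the genes called in mutants, 40 groups of 4 arrays were checked for an array far from the rest, a check that chance trips in about 1 group in 20, and 2 were found. Efna5 in the GLP hippocampus control replicate 2 read 1.44, against 2.02 to 2.08 in the other controls. Without that array Efna5 was still called. Plxnc1 in the G9a striatum mutant replicate 2 read 4.61, against 4.24 to 4.27 in the other mutants, and without it the rise of Plxnc1 was no longer called.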

How the results depend on the processing

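Of the 22 tissue calls, 7 held in every alternative in which they were tested, other than leaving out an array, and 15 were lost in at least 1. Among the 7, Sema3b in the GLP hippocampus and Plxnc1 in the G9a striatum were not tested with the mean of probe sets. Held in all alternatives and without any 1 array were 3: Flrt3 in both hippocampus comparisons and Ntn5 in the GLP hippocampus. Sema5a in the cortex reversed to 0.051 with GLP-line controls only. Counts of members called moved as follows. With the mean of probe sets they were 3 in the GLP hippocampus, 2 in the G9a hippocampus and 1 in the G9a cortex. With only the compared groups in the fit they were 0 in both hypothalamus comparisons, 4 in the GLP cortex and 6 in the G9a cortex. No filter gave 2 and quantile normalization 2 in the G9a hippocampus, and quantile normalization 5 in the G9a hypothalamus. Sex as a covariate gave 6 between MSN controls. With a replicate block the counts were 0 in the GLP hypothalamus, GLP striatum and G9a hypothalamus. They were 5 in the G9a cortex and 7 between MSN controls, and the Drd2-MSN count stayed 0. The labels link these arrays by number alone, so whether they were paired is not known. Same-numbered mutant and control arrays of the G9a hypothalamus and G9a striatum also shared sex. In the G9a hypothalamus same-numbered deviations correlated at 0.636, 0.427, -0.0097 and 0.398, a hint of pairing in 3 of 4 numbers. All 3 calls there were lost with the block (adjusted p = 0.359 to 0.418). The block was fitted on the compared groups alone, and with those groups alone and no block the 3 calls were also lost (adjusted p = 0.58 to 0.828). Their loss with the block therefore says nothing about pairing. The enzyme difference in the hippocampus gained 1 member with no filter, a floor, quantile normalization or sex.

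Leaving out 1 array gave 2 to 5 members in the GLP hippocampus, 0 to 3 in the GLP hypothalamus, 0 to 1 in the GLP striatum, 0 to 2 in the GLP cortex, 2 to 3 in the G9a hippocampus, 1 to 13 in the G9a hypothalamus, 2 to 5 in the G9a striatum, 4 to 10 between MSN controls and 0 to 1 for the enzyme differences in the hippocampus and hypothalamus. The 13 came without G9a hypothalamus mutant replicate 2, with 9 higher, and the cause was not tested. The share of all genes called without that array is not given here, so the 13 cannot be read as particular to guidance genes. Of the 22 tissue calls, 7 held without any 1 array and 15 did not.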
